A study of Mus musculus with 6 samples.

Results

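Glucose uptake, glycolysis, the fates of pyruvate and glycogen turnover were followed in hearts of 10-day-old mice through 38 genes taken by name from a table of 46452 genes. Each of the 38 names matched a row of the table. Of these, 36 reached a mean of at least 1 FPKM (fragments over each kilobase of a gene, scaled by library) over the 6 libraries and were tested. Aldoc and Pdk3 did not reach that mean and are given as values. Hearts of 2 groups were sequenced as poly(A)-selected RNA, with 3 biological replicates each: a group labelled Nat10-CKO, a name for a conditional knockout of Nat10, and a group labelled Nat10 flox/flox, a name for loxP-flanked Nat10 alleles. Both groups were of the same age. The Cre driver, the deleted exons, the strain, the sex of the mice and whether the Nat10 flox/flox mice carried a Cre are not given in the sources used here. Nat10 encodes the acetyltransferase that makes N4-acetylcytidine in RNA, and the series asks how it acts on heart development.

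Nat10 itself went against the labels. Its level was 8.28, 8.66 and 10.2 FPKM in hearts labelled Nat10-CKO, against 3.75, 4.18 and 4.71 FPKM in Nat10 flox/flox hearts, a fold of 2.14 (log2 fold change 0.94 ± 0.12 SE, limma adjusted p = 0.00142). The 2 groups are therefore called by their labels throughout, and each direction below is that of hearts labelled Nat10-CKO relative to those labelled Nat10 flox/flox. Per-gene FPKM cannot show whether the transcript counted carries a deletion.

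Glycolysis splits glucose into pyruvate in the cytosol. Pyruvate is then either reduced to lactate and exported, or carried into mitochondria and oxidised through the pyruvate dehydrogenase complex. The fetal heart relies heavily on glucose and lactate, and after birth the mouse heart turns to fatty acid oxidation. Over the same period several steps change from a widely expressed form of the enzyme to a form typical of adult striated muscle. The pairs followed here include GLUT1 (Slc2a1) and GLUT4 (Slc2a4), hexokinase 1 and 2, the platelet and muscle phosphofructokinases, the brain and muscle phosphoglycerate mutases, alpha and beta enolase, and the brain and muscle glycogen phosphorylases.

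The libraries held between 31155521 and 38051266 reads in genes, and a single read over 1 kb of gene length gave 0.0246 to 0.0316 FPKM. In a principal component analysis of the tested genes, the first component, with 68.2% of the variance, separated the labels. The second (14.7%) set Nat10 flox/flox replicate 1 apart and the third (10.5%) set Nat10-CKO replicate 1 apart. Mitochondrially encoded genes took 7.56% to 9.26% of the reads in hearts labelled Nat10-CKO, against 16.55% to 18.35% in Nat10 flox/flox hearts. The 6 cardiomyocyte markers (Myh6, Tnnt2, Actn2, Ttn, Tnni3 and Ryr2) summed to 7432, 9502 and 11853 FPKM in hearts labelled Nat10-CKO, against 9539, 9901 and 10777 FPKM in Nat10 flox/flox hearts, as the heart label calls for, and 1 of the 6 was called lower. The 4 atrial markers were near 0, with sums of 0.632 to 0.997 FPKM in hearts labelled Nat10-CKO against 0.183 to 0.726 FPKM in Nat10 flox/flox hearts and Bmp10 at 0 in all 6 libraries. Whether the samples held atria was not tested. Endothelial markers summed to 165 to 176 FPKM in hearts labelled Nat10-CKO, against 294 to 345 FPKM in Nat10 flox/flox hearts, and 5 of 5 were called lower. Erythroid markers (423 to 535 FPKM in hearts labelled Nat10-CKO against 689 to 1780 FPKM in Nat10 flox/flox hearts) were also called lower in 5 of 5 cases, and smooth muscle and pericyte markers (100 to 138 FPKM in hearts labelled Nat10-CKO against 203 to 243 FPKM in Nat10 flox/flox hearts) in 2 of the 4 tested. No marker of fibroblasts (307 to 493 FPKM in hearts labelled Nat10-CKO against 277 to 306 FPKM in Nat10 flox/flox hearts) or macrophages (511 to 655 FPKM in hearts labelled Nat10-CKO against 352 to 574 FPKM in Nat10 flox/flox hearts) was called. Skeletal muscle markers (2.95 to 3.77 FPKM in hearts labelled Nat10-CKO against 1.65 to 2.18 FPKM in Nat10 flox/flox hearts) and adipocyte markers (0 to 0.0478 FPKM in hearts labelled Nat10-CKO against 0.0409 to 1.59 FPKM in Nat10 flox/flox hearts) were low in both groups. In these bulk samples fewer cells of a type and less RNA per cell cannot be told apart, and the part that cell makeup plays in the values below was not tested.

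In hearts labelled Nat10-CKO 11 members rose. On the route from glucose to lactate these were Slc2a1, Hk1, Gpi1, Pfkp, Tpi1, Pgk1, Eno1, Pkm, Ldha and Slc16a3. Off that route the glycogen branching enzyme Gbe1 rose. The members that fell were Pfkfb1, which sets the level of an activator of phosphofructokinase, and Pdp1, a phosphatase that switches pyruvate dehydrogenase on. Pfkfb1 reached the minimum mean only through the Nat10 flox/flox group. The other 23 tested members did not pass the threshold (limma on log2(FPKM + 1), Benjamini-Hochberg adjusted p under 0.05 over all tested genes). The share called higher was 30.6% of the 36 tested members, beside 24.4% of the 11996 tested genes, and the share called lower was 5.56% of members, beside 16% of all tested genes. In either direction 40.5% of all tested genes were called. The median log2 fold change was -0.15 over the tested members and 0.035 over all tested genes. Without Nat10-CKO replicate 1 these medians were 0.04 and 0.039. Scaled by each library's total reads outside mitochondrially encoded genes, in place of the deposited scaling, they were -0.38 and -0.124. Scaled by all reads in genes, they were -0.19 and 0.002. The groups did not overlap in 20 of 36 members (55.6%), close to the 55.9% of all tested genes for which they did not overlap. In 12 of these 20 every heart labelled Nat10-CKO was above every Nat10 flox/flox heart, and in 8 every one was below.

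Nat10-CKO replicate 1 held the lowest of the 6 values in 17 of the 36 tested members and the highest in 5. The number called higher was 13 without that library. The number called lower depended on single libraries: it was 4 when Nat10-CKO replicate 1 was left out, 7 when Nat10-CKO replicate 3 was left out, and 1 when Nat10 flox/flox replicate 1 or replicate 3 was left out, where Pfkfb1 fell below the minimum mean. Of the 13 called members, 12 kept their call under every alternative in which they were tested, and Pkm was the exception.

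**Figure D1:**
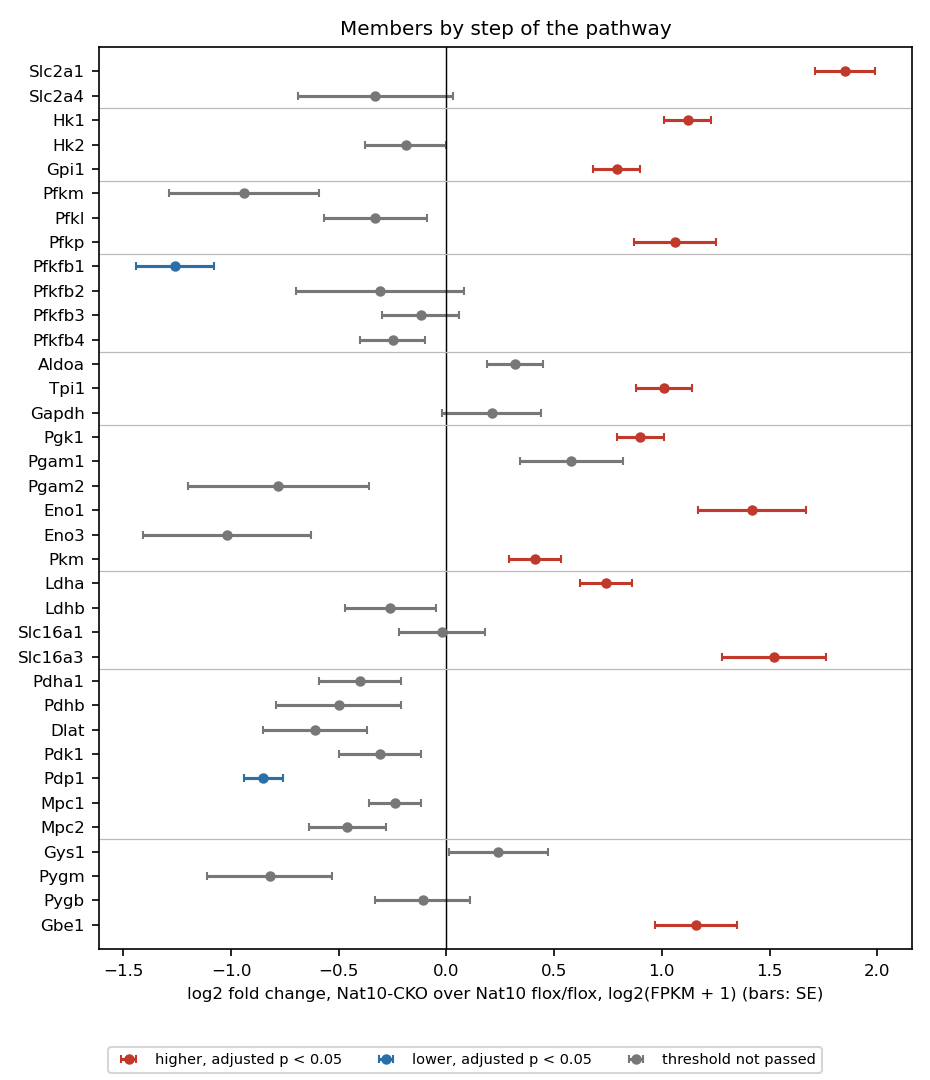
Log2 fold change of the 36 tested members (points, with bars of 1 SE) for hearts labelled Nat10-CKO over Nat10 flox/flox hearts, on the log2(FPKM + 1) scale, ordered by step of the pathway with grey lines between steps. The 11 members called higher lie between 0.41 (Pkm) and 1.85 (Slc2a1), and the 7 tested members of the pyruvate dehydrogenase and carrier group all lie below 0.

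At glucose entry the widely expressed transporter rose and the muscle transporter did not pass the test. Slc2a1, which encodes GLUT1, the main glucose carrier of the fetal heart (gene 20525, chr4:118965942-118994527 in GRCm39, plus strand), had 29.9, 27.7 and 23 FPKM in hearts labelled Nat10-CKO, against 7.13, 7.28 and 5.8 FPKM in Nat10 flox/flox hearts. All 3 hearts labelled Nat10-CKO stood far above the others. Its mean was 26.9 ± 3.54 FPKM in hearts labelled Nat10-CKO against 6.73 ± 0.812 FPKM in Nat10 flox/flox hearts (SD, n = 3 each), a fold of 3.99, with a log2 fold change of 1.85 ± 0.14 (SE, limma adjusted p = 0.000335). Slc2a4, which encodes the insulin-responsive GLUT4, had 55.2, 91.7 and 162 FPKM in hearts labelled Nat10-CKO, against 106, 117 and 134 FPKM in Nat10 flox/flox hearts. These groups overlapped, with both the lowest and the highest value among hearts labelled Nat10-CKO (log2 fold change -0.33 ± 0.36, limma adjusted p = 0.495).

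Both steps that follow had a member that rose. Hk1, a hexokinase that traps glucose in the cell as glucose 6-phosphate and is prominent in fetal tissue (gene 15275, chr10:62104634-62215699, minus strand), had 101, 118 and 116 FPKM in hearts labelled Nat10-CKO, against 50.6, 51.8 and 50 FPKM in Nat10 flox/flox hearts. The fold was 2.2, with a log2 fold change of 1.12 ± 0.11 (limma adjusted p = 0.000639). Its partner Hk2, the insulin-regulated hexokinase of adult muscle, had 32.7, 47.3 and 49 FPKM in hearts labelled Nat10-CKO, against 41.1, 51.7 and 53.4 FPKM in Nat10 flox/flox hearts. The Hk2 groups overlapped (log2 fold change -0.19 ± 0.19 SE, limma adjusted p = 0.457). Gpi1, the isomerase that makes fructose 6-phosphate (gene 14751, chr7:33900752-33929761, minus strand), had 414, 404 and 431 FPKM in hearts labelled Nat10-CKO, against 226, 247 and 250 FPKM in Nat10 flox/flox hearts. That is a fold of 1.73, with narrow and separate groups (log2 fold change 0.79 ± 0.11 SE, limma adjusted p = 0.00252).

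Phosphofructokinase, the committed step of glycolysis, is a tetramer of muscle, liver and platelet subunits. The platelet subunit rose while the muscle subunit, the main form by level in all 6 libraries, did not pass the threshold. Pfkp (gene 56421, chr13:6629910-6699096, minus strand) had 17.1, 27.3 and 19 FPKM in hearts labelled Nat10-CKO, against 10.7, 9.23 and 8.53 FPKM in Nat10 flox/flox hearts, a fold of 2.23 (log2 fold change 1.06 ± 0.19 SE, limma adjusted p = 0.0052). Pfkm had 89.9, 192 and 236 FPKM in hearts labelled Nat10-CKO, against 267, 312 and 351 FPKM in Nat10 flox/flox hearts. The Pfkm groups did not overlap, and replicate 1 of Nat10-CKO was well below the other two. Its log2 fold change was -0.94 ± 0.35 (limma adjusted p = 0.0724), and it shrank to -0.53 (adjusted p = 0.0418) without Nat10-CKO replicate 1. If replicate 3 was left out instead, it was -1.22 (adjusted p = 0.0364). Pfkl, the liver subunit, had 17.8, 35.6 and 28.9 FPKM in hearts labelled Nat10-CKO, against 31.6, 33 and 36 FPKM in Nat10 flox/flox hearts, with overlapping groups (adjusted p = 0.306).

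The PFKFB enzymes make and break the bisphosphate that activates phosphofructokinase. Of the 4, Pfkfb1 fell and the others did not pass. Pfkfb1, the form of liver and muscle (gene 18639, chrX:149370441-149426874, plus strand), had 0.343, 0.131 and 0.21 FPKM in hearts labelled Nat10-CKO, against 1.74, 1.53 and 2.6 FPKM in Nat10 flox/flox hearts. These were 39, 14 and 22 reads in hearts labelled Nat10-CKO against 219, 150 and 285 reads in Nat10 flox/flox hearts. With means of 0.228 FPKM in hearts labelled Nat10-CKO and 1.96 FPKM in Nat10 flox/flox hearts, Pfkfb1 was tested only because the latter were high. The mean in hearts labelled Nat10-CKO was 0.116 times that in Nat10 flox/flox hearts. The log2 fold change of -1.26 ± 0.18 (limma adjusted p = 0.00242) understates this because the gene is low. Pfkfb2, a form abundant in heart, had 3.14, 8.24 and 11.7 FPKM in hearts labelled Nat10-CKO, against 7.51, 10.7 and 8.3 FPKM in Nat10 flox/flox hearts. Pfkfb3 had 4.89, 5.86 and 4.01 FPKM in hearts labelled Nat10-CKO, against 5.87, 6.4 and 4.07 FPKM in Nat10 flox/flox hearts, and Pfkfb4 had 1.71, 1.66 and 1.38 FPKM in hearts labelled Nat10-CKO, against 2.63, 2.03 and 1.64 FPKM in Nat10 flox/flox hearts. In none of these 3 did the groups separate (limma adjusted p between 0.225 and 0.64).

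In the middle of the pathway Tpi1 rose. Tpi1, which interconverts the triose phosphates (gene 21991, chr6:124787549-124791121, minus strand), had 736, 820 and 856 FPKM in hearts labelled Nat10-CKO, against 376, 406 and 413 FPKM in Nat10 flox/flox hearts, a fold of 2.02 (log2 fold change 1.01 ± 0.13 SE, limma adjusted p = 0.00149). Aldoa, the muscle aldolase and the most abundant member per length, ranged over 1166 to 1251 FPKM in hearts labelled Nat10-CKO and 928 to 1007 FPKM in Nat10 flox/flox hearts. The Aldoa groups did not overlap, but the difference did not pass (log2 fold change 0.32 ± 0.13 SE, limma adjusted p = 0.0849, and 0.0481 without Nat10-CKO replicate 1). Aldoc, the brain aldolase, was at 5, 17 and 8 reads in hearts labelled Nat10-CKO, against 588, 10 and 5 reads in Nat10 flox/flox hearts. Nat10 flox/flox replicate 1 alone was high. That library also had the highest sum of neuron and Schwann cell markers, 17.1 FPKM, where the other 5 libraries ranged over 1.85 to 3.74 FPKM. Gapdh, the dehydrogenase of the next step, was listed at 3.95 to 6.61 FPKM in hearts labelled Nat10-CKO against 3.4 to 5.87 FPKM in Nat10 flox/flox hearts and is uncertain. A further 208 rows carry the same protein entry, so reads of Gapdh could have been split or lost among copies (limma adjusted p = 0.485). Those rows together averaged 44.9 FPKM in hearts labelled Nat10-CKO and 57.3 FPKM in Nat10 flox/flox hearts, above the Gapdh row itself. Of them, 7 had a mean of at least 1 FPKM, and their sum was not tested.

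Among the lower glycolytic enzymes, which yield ATP and pyruvate, Pgk1, Eno1 and Pkm rose. Pgk1, which makes the first ATP of the pathway (gene 18655, chrX:105230706-105247305, plus strand), had 414, 432 and 412 FPKM in hearts labelled Nat10-CKO, against 216, 226 and 231 FPKM in Nat10 flox/flox hearts. Replicates lay close together in both groups, and the fold was 1.87 (log2 fold change 0.90 ± 0.11 SE, limma adjusted p = 0.00132). Eno1, the alpha enolase of fetal and most other tissues (gene 13806, chr4:150321165-150333336, plus strand), had 430, 251 and 225 FPKM in hearts labelled Nat10-CKO, against 104, 110 and 109 FPKM in Nat10 flox/flox hearts. Replicate 1 of Nat10-CKO was the highest, and the fold was 2.81 with it and 2.21 without it (log2 fold change 1.42 ± 0.25 SE, limma adjusted p = 0.00481). Its partner Eno3, the beta enolase of adult muscle, had 60.7, 137 and 190 FPKM in hearts labelled Nat10-CKO, against 207, 245 and 262 FPKM in Nat10 flox/flox hearts. The Eno3 groups did not overlap, and the same library was now the lowest (log2 fold change -1.02 ± 0.39 SE, limma adjusted p = 0.08). Without Nat10-CKO replicate 1 its log2 fold change was -0.56 (adjusted p = 0.0519), and without Nat10-CKO replicate 3 it was -1.37 (adjusted p = 0.0295).

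Pkm encodes pyruvate kinase (gene 18746, chr9:59563859-59586655, plus strand), and its splice forms cannot be told apart in a table per gene. It had 258, 230 and 217 FPKM in hearts labelled Nat10-CKO, against 174, 170 and 183 FPKM in Nat10 flox/flox hearts, a fold of 1.34 (log2 fold change 0.41 ± 0.12 SE, limma adjusted p = 0.0325). This call was the least firm of the 13. It was lost in 12 of 19 alternatives, with adjusted p of 0.0868 without Nat10-CKO replicate 2 and with 0.0897, 0.119 and 0.0774 when Nat10 flox/flox replicate 1, 2 or 3 was left out. The phosphoglycerate mutases did not pass. Pgam1, the brain form, ranged over 37.7 to 52.9 FPKM in hearts labelled Nat10-CKO and 23.6 to 41.4 FPKM in Nat10 flox/flox hearts (log2 fold change 0.58 ± 0.24 SE, limma adjusted p = 0.0963, and 0.0162 without Nat10 flox/flox replicate 1). Pgam2, the muscle form, ranged over 111 to 348 FPKM in hearts labelled Nat10-CKO against 360 to 413 FPKM in Nat10 flox/flox hearts, with groups that did not overlap (log2 fold change -0.78 ± 0.42 SE, limma adjusted p = 0.176). Without Nat10-CKO replicate 1 the log2 fold change of Pgam2 was -0.27.

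At the lactate branch the A subunit of lactate dehydrogenase and an exporter rose. Ldha, whose subunit predominates in glycolytic tissue (gene 16828, chr7:46491698-46505051, plus strand), had 219, 211 and 188 FPKM in hearts labelled Nat10-CKO, against 117, 122 and 131 FPKM in Nat10 flox/flox hearts, a fold of 1.67 (log2 fold change 0.74 ± 0.12 SE, limma adjusted p = 0.00372). Ldhb, the subunit that predominates in adult heart, had 546, 715 and 924 FPKM in hearts labelled Nat10-CKO, against 793, 880 and 894 FPKM in Nat10 flox/flox hearts. The Ldhb groups overlapped (log2 fold change -0.26 ± 0.21 SE, limma adjusted p = 0.351). Slc16a3, which encodes the monocarboxylate transporter of lactate-exporting cells (gene 80879, chr11:120839310-120849826, plus strand), had 5.1, 5.64 and 2.55 FPKM in hearts labelled Nat10-CKO, against 0.796, 0.963 and 0.743 FPKM in Nat10 flox/flox hearts. It had the largest fold of the members that rose, 5.31, from a low level (log2 fold change 1.52 ± 0.24 SE, limma adjusted p = 0.00362). Slc16a3 averaged 0.834 FPKM in Nat10 flox/flox hearts, so it reached the minimum mean only through hearts labelled Nat10-CKO. Its partner Slc16a1, the widely expressed lactate carrier, had 44, 44.8 and 58.2 FPKM in hearts labelled Nat10-CKO, against 41, 45.6 and 64.4 FPKM in Nat10 flox/flox hearts, and these groups overlapped (log2 fold change -0.02 ± 0.20 SE, limma adjusted p = 0.937).

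**Figure D2:**
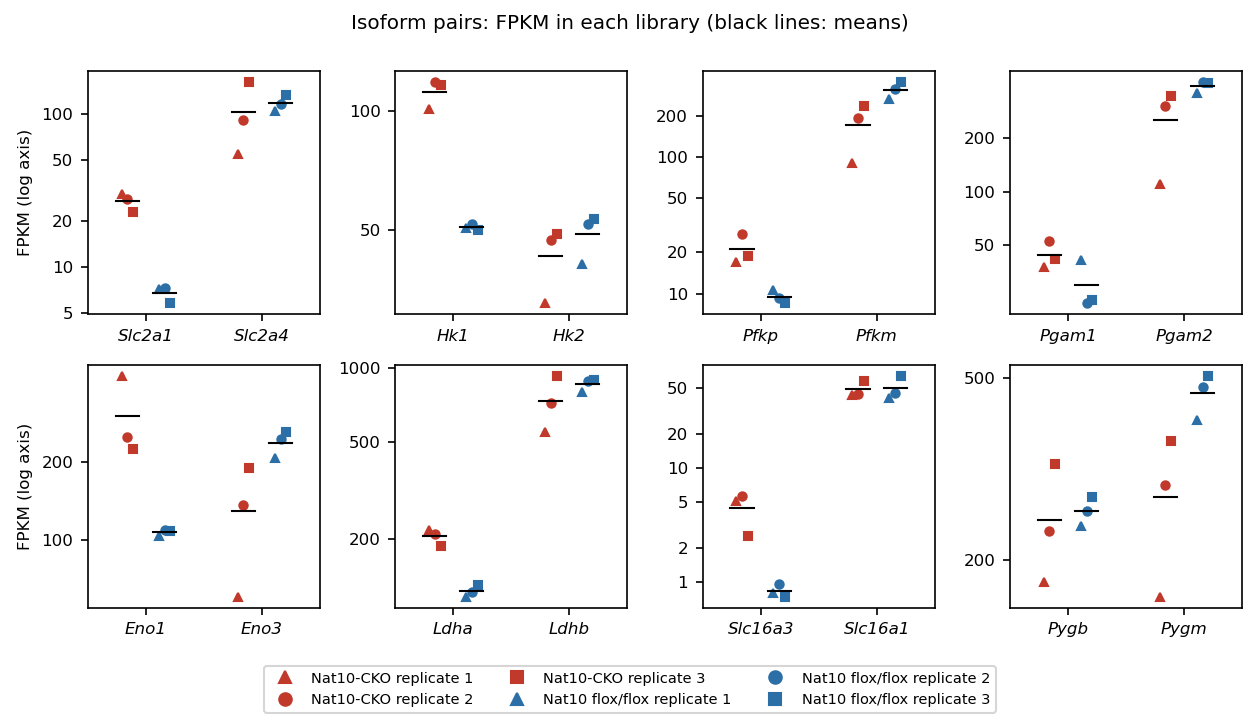
FPKM of both members of 8 isoform pairs in each library on log axes, with hearts labelled Nat10-CKO in red to the left of Nat10 flox/flox hearts in blue and black lines at group means. Slc2a1, Hk1, Pfkp, Eno1, Ldha and Slc16a3 show separate groups with the red points above, while their partners on the right of each panel either overlap or show the red points below, with Nat10-CKO replicate 1 (red triangle) lowest in Slc2a4, Hk2, Pfkm, Pgam2, Eno3, Ldhb and Pygm.

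At the mitochondrial branch Pdp1 fell, and no member rose. Pdp1, the phosphatase that removes the inhibitory phosphates from pyruvate dehydrogenase (gene 381511, chr4:11958183-11966450, minus strand), had 5.73, 5.78 and 5.61 FPKM in hearts labelled Nat10-CKO, against 10.7, 10.5 and 12 FPKM in Nat10 flox/flox hearts. The 3 hearts labelled Nat10-CKO lay close together. Their mean was 0.515 times that of Nat10 flox/flox hearts (log2 fold change -0.85 ± 0.09 SE, limma adjusted p = 0.000888). The 6 other tested members of this group had log2 fold changes below 0 and did not pass. They are the E1 subunit genes Pdha1 and Pdhb, the E2 gene Dlat, the inhibitory kinase Pdk1, and Mpc1 and Mpc2, which form the mitochondrial pyruvate carrier. Dlat ranged over 50 to 94.7 FPKM in hearts labelled Nat10-CKO and 100 to 126 FPKM in Nat10 flox/flox hearts (log2 fold change -0.61 ± 0.24 SE, limma adjusted p = 0.0845). Mpc2 ranged over 132 to 210 FPKM in hearts labelled Nat10-CKO against 214 to 238 FPKM in Nat10 flox/flox hearts (log2 fold change -0.46 ± 0.18 SE, limma adjusted p = 0.086). For both, the groups did not overlap, and the adjusted p without Nat10-CKO replicate 3 was 0.0387 for Dlat and 0.025 for Mpc2. Leaving out replicate 1 of Nat10-CKO instead brought the log2 fold change to -0.35 for Dlat and -0.30 for Mpc2, and to -0.21 for Pdha1, -0.18 for Pdhb and -0.11 for Pdk1. Pdha1 (151 to 237 FPKM in hearts labelled Nat10-CKO against 233 to 284 FPKM in Nat10 flox/flox hearts), Pdhb (173 to 375 FPKM in hearts labelled Nat10-CKO against 330 to 422 FPKM in Nat10 flox/flox hearts), Pdk1 (15.5 to 25.5 FPKM in hearts labelled Nat10-CKO against 22.4 to 28.7 FPKM in Nat10 flox/flox hearts) and Mpc1 (15.8 to 19 FPKM in hearts labelled Nat10-CKO against 18.4 to 22.8 FPKM in Nat10 flox/flox hearts) overlapped. When libraries were scaled by their total reads outside mitochondrially encoded genes, in place of the deposited scaling, Pdha1, Dlat, Mpc1 and Mpc2 passed as lower. Their limma adjusted p values were 0.0262, 0.0227, 0.015 and 0.017. Dlat and Mpc2 also passed when scaled by all reads in genes. Pdk3 was at 0.33 to 0.767 FPKM in hearts labelled Nat10-CKO against 0.42 to 0.737 FPKM in Nat10 flox/flox hearts and was not tested.

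Of the 4 glycogen genes, the branching enzyme rose. Gbe1, which adds branch points to glycogen (gene 74185, chr16:70110837-70366608, plus strand), had 45.7, 34.8 and 28.9 FPKM in hearts labelled Nat10-CKO, against 13.9, 15 and 17.9 FPKM in Nat10 flox/flox hearts, a fold of 2.34 (log2 fold change 1.16 ± 0.19 SE, limma adjusted p = 0.00364). Pygm, the muscle glycogen phosphorylase, ranged over 166 to 365 FPKM in hearts labelled Nat10-CKO against 405 to 506 FPKM in Nat10 flox/flox hearts, with groups that did not overlap. It missed the threshold (log2 fold change -0.82 ± 0.29 SE, limma adjusted p = 0.0618), with a log2 fold change of -0.50 (adjusted p = 0.045) without Nat10-CKO replicate 1 and of -1.06 (adjusted p = 0.0275) without Nat10-CKO replicate 3. Pygb, the brain form, ranged over 179 to 324 FPKM in hearts labelled Nat10-CKO against 237 to 275 FPKM in Nat10 flox/flox hearts and overlapped (adjusted p = 0.727). Gys1, the muscle glycogen synthase, ranged over 27 to 48.8 FPKM in hearts labelled Nat10-CKO against 29.2 to 35 FPKM in Nat10 flox/flox hearts and overlapped (log2 fold change 0.24 ± 0.23 SE, limma adjusted p = 0.422). When Nat10-CKO replicate 1 was left out, Gys1 had a log2 fold change of 0.50 (adjusted p = 0.0197).

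The balance between forms was measured within each library as the share of 1 form in the summed FPKM of its group, which divides out any factor common to a library. Of 10 such shares, 8 had groups that did not overlap and 2 had groups that did. Among all tested genes taken singly, groups did not overlap in 55.9%. A single level is a different measure from a share, and shares of other gene groups were not computed. The called members Slc2a1, Hk1, Pfkp, Eno1, Ldha and Slc16a3 enter these shares, so the shares are not independent of those calls. Eno1 made up 87.6%, 64.7% and 54.3% of enolase FPKM in hearts labelled Nat10-CKO, against 33.3%, 30.9% and 29.4% in Nat10 flox/flox hearts, a difference of 37.7 percentage points (68.9 ± 17.1% in hearts labelled Nat10-CKO against 31.2 ± 1.99% in Nat10 flox/flox hearts, SD, n = 3 each). Which form is the larger rests on the authors' gene lengths, and how these were defined is unknown here. By reads, Eno1 had 31745, 17447 and 15332 and Eno3 had 12208, 25896 and 35176 in hearts labelled Nat10-CKO, so Eno1 was the larger only in replicate 1 of Nat10-CKO. The difference in share by reads was 33.3 points. Hk1 made up 75.5%, 71.3% and 70.3% of the hexokinase pair in hearts labelled Nat10-CKO, against 55.2%, 50% and 48.3% in Nat10 flox/flox hearts, a difference of 21.2 points. Slc2a1 made up 35.1%, 23.2% and 12.4% of the transporter pair in hearts labelled Nat10-CKO, against 6.29%, 5.86% and 4.16% in Nat10 flox/flox hearts, a difference of 18.1 points. Slc2a4 remained the larger of the 2 in all 6 libraries.

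The same direction, with smaller differences, held for the mutase, lactate dehydrogenase, lactate transporter and phosphorylase pairs. Pgam1 made up 25.3%, 14.8% and 10.8% of its pair in hearts labelled Nat10-CKO, against 10.3%, 5.4% and 5.68% in Nat10 flox/flox hearts. Its difference was 9.82 points, or 5.63 points without Nat10-CKO replicate 1. The Ldha share was 28.6%, 22.8% and 16.9% in hearts labelled Nat10-CKO against 12.8%, 12.1% and 12.8% in Nat10 flox/flox hearts. The Slc16a3 share was 10.4%, 11.2% and 4.19% in hearts labelled Nat10-CKO against 1.9%, 2.07% and 1.14% in Nat10 flox/flox hearts. The Pygb share was 51.8%, 44.3% and 47% in hearts labelled Nat10-CKO against 37%, 34.8% and 35.3% in Nat10 flox/flox hearts. For the 3 phosphofructokinases the share measured was that of the muscle subunit, Pfkm. It was lower, at 72.1%, 75.3% and 83.2% in hearts labelled Nat10-CKO, against 86.3%, 88.1% and 88.8% in Nat10 flox/flox hearts. The share of Pfkl and Pfkp together was thus higher. The share of Pdk1 and Pdk3 among the 4 pyruvate dehydrogenase kinases overlapped between groups (8.17 ± 1.75% in hearts labelled Nat10-CKO against 5.74 ± 2.02% in Nat10 flox/flox hearts), as did that of Aldoc among the aldolases. The 8 shares without overlap each had an exact two-sided permutation p of 0.10, the smallest that 3 against 3 allows, and 0.12 after Benjamini-Hochberg adjustment over the 10 shares, so none could pass. Computed on reads that are not divided by gene length, the difference was -20.5 points for Pfkm (-10.9 by FPKM) and 17 points for Ldha (10.2 by FPKM).

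**Figure D3:**
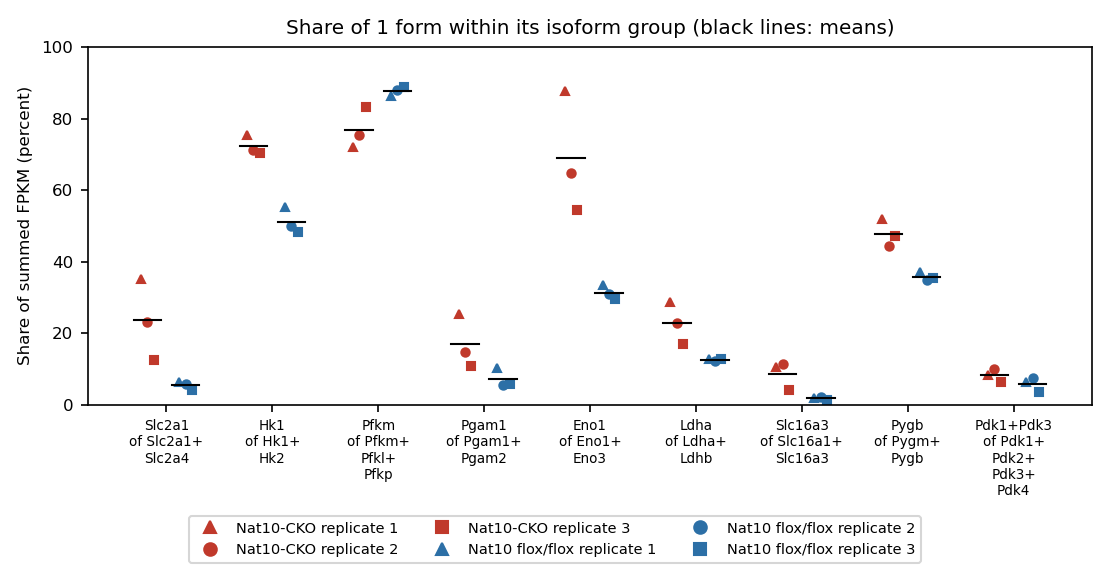
Share of 1 form in the summed FPKM of its isoform group, in percent, for 9 groups and each library, with hearts labelled Nat10-CKO in red to the left of Nat10 flox/flox hearts in blue and black lines at means. Red lies above blue for 7 shares and below it for Pfkm, and the kinase share on the right overlaps. Nat10-CKO replicate 1 (triangle) has the most extreme share among the red points for all but Slc16a3 and the kinases.

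Summed over their forms, some steps were higher and others lower in hearts labelled Nat10-CKO. Hk1 and Hk2 together came to 155 ± 18.2 FPKM in hearts labelled Nat10-CKO, against 99.5 ± 6.77 FPKM in Nat10 flox/flox hearts, and the enolase pair to 431 ± 53.4 FPKM in hearts labelled Nat10-CKO against 346 ± 31 FPKM in Nat10 flox/flox hearts, without overlap. The direction of the enolase sum rests on the authors' gene lengths, 2005 bases for Eno1 and 5457 for Eno3. By reads, Eno1 had 8463, 6959 and 7767 and Eno3 had 46094, 42330 and 50848 in Nat10 flox/flox hearts. Beside the reads given above for hearts labelled Nat10-CKO, the pair then summed to less on average in hearts labelled Nat10-CKO. The phosphofructokinases (221 ± 84.9 FPKM in hearts labelled Nat10-CKO against 353 ± 43.1 FPKM in Nat10 flox/flox hearts) and the mutases (299 ± 131 FPKM in hearts labelled Nat10-CKO against 424 ± 19.7 FPKM in Nat10 flox/flox hearts) summed to less, also without overlap. Nat10-CKO replicate 1 was well below replicates 2 and 3 in both, at 125 beside 255 and 284 FPKM and at 149 beside 359 and 390 FPKM. The sums of the glucose transporter pair (130 ± 50.9 FPKM in hearts labelled Nat10-CKO against 126 ± 13.1 FPKM in Nat10 flox/flox hearts), the lactate dehydrogenase pair (934 ± 174 FPKM in hearts labelled Nat10-CKO against 979 ± 61.4 FPKM in Nat10 flox/flox hearts) and the lactate transporter pair (53.4 ± 6.37 FPKM in hearts labelled Nat10-CKO against 51.2 ± 12.3 FPKM in Nat10 flox/flox hearts) overlapped. The lactate dehydrogenase sum also rests on the lengths, 5342 bases for Ldha and 1304 for Ldhb. By reads, Ldha had 43060, 39108 and 34106 and Ldhb had 26264, 32356 and 40967 in hearts labelled Nat10-CKO. In Nat10 flox/flox hearts Ldha had 25337, 20565 and 24859 and Ldhb had 42078, 36334 and 41451. The pair then summed to more in every heart labelled Nat10-CKO than in any Nat10 flox/flox heart. The aldolase sum was higher without overlap (1206 ± 42.6 FPKM in hearts labelled Nat10-CKO against 968 ± 36.8 FPKM in Nat10 flox/flox hearts). The sum of the pyruvate dehydrogenase kinases was lower without overlap (267 ± 71.4 against 517 ± 271 FPKM). The phosphorylase sum overlapped (519 ± 172 against 719 ± 70.8 FPKM). These sums were not tested. The cardiomyocyte marker sum was lowest in Nat10-CKO replicate 1 and highest in Nat10-CKO replicate 3, the same order as Slc2a4, Hk2, Pfkm, Pgam2, Eno3, Ldhb and Pygm had within that group. Of its markers, Myh6, Actn2, Tnni3 and Ryr2 had that order. Tnnt2 (4301, 3395 and 4248 FPKM in hearts labelled Nat10-CKO) and Ttn (17.9, 25.7 and 25.3 FPKM) did not. The part of cardiomyocyte content in these values was not tested.

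Promoter windows were searched for ACGTG on either strand, the letters at the centre of the hypoxia response element, and for CACGTG, the E-box that MYC and related factors can bind. A CACGTG contains ACGTG on both strands. Windows of 250 bases before each RefSeq start were used for 36 members, all but Slc2a4 and Pdp1. ACGTG stood in a window of 16 of the 36 (44.4%), against 18.5% of 27025 genes in the same RefSeq table. It stood in 5 of the 11 members called higher (45.5%) and in 10 of the 22 not called (45.5%). A gene counts here if any of its windows holds the letters, and members had more windows a gene than the table as a whole. By window, ACGTG stood in 20 of 55 windows of members (36.4%), against 16.6% of 32851 windows in the table, with 31.2% for members called higher and 43.8% for those not called. CACGTG stood in 5 of 36 members (13.9%), against 6.86% of all genes, and in 1 of the 11 called higher, Ldha. These backgrounds hold every gene of the RefSeq table, whether or not it was tested here. A background of tested genes alone was not computed, so the differences cannot be assigned to the pathway. A match is a description of these letters and no evidence of binding. Shown are Pgk1 and Ldha, which rose and carry matches, and Hk2, which carries matches and did not pass the test. The windows come from RefSeq on GRCm38.p6, were placed on GRCm39 by an exact match, and are cut where an annotated exon of the gene begins within the window. The Ldha stretch lies before one of several annotated starts of that gene and inside the span of longer transcripts. Each is given 5′ to 3′ on the strand of its gene, with ACGTG or its reverse complement CACGT in capitals.
Pgk1, chrX:105230456-105230705, plus strand: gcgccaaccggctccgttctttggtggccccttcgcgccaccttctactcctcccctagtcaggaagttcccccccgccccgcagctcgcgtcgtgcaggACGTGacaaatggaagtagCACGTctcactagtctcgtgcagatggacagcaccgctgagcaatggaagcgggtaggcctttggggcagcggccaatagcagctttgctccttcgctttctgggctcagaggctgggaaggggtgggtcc
Ldha, chr7:46494978-46495131, plus strand: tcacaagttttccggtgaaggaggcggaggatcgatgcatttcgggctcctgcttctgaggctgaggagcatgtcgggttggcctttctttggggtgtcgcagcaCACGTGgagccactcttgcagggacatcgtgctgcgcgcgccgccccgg
Hk2, chr6:82751470-82751685, minus strand: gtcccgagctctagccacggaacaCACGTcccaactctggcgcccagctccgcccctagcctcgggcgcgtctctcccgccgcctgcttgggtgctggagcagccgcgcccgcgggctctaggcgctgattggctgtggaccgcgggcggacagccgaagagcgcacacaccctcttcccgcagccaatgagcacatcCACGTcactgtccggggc
The Pgk1 window holds a match on each strand, the Ldha stretch holds 2 of the 5 matches of its full window, as 1 CACGTG, and the Hk2 stretch holds 2 matches on the reverse strand.

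A further 87 genes of the pathway's branches, glycogen handling and regulation were read from the same fit, and 74 reached the minimum mean. Of these, 9 were called higher (12.2%, beside 24.4% of all tested genes) and 15 lower (20.3%, beside 16%). Of the regulators, Myc, a transcription factor that drives growth and glycolytic genes, rose. It had 16.8, 15.7 and 15.6 FPKM in hearts labelled Nat10-CKO, against 2.52, 2.57 and 2.89 FPKM in Nat10 flox/flox hearts, a fold of 6.04 (log2 fold change 2.22 ± 0.09 SE, limma adjusted p = 7.65e-05). Its relative Mycn, active in the embryonic heart, fell, with 0.648, 0.499 and 0.442 FPKM in hearts labelled Nat10-CKO against 3.64, 4.25 and 2.35 FPKM in Nat10 flox/flox hearts (log2 fold change -1.51 ± 0.19 SE, limma adjusted p = 0.00141). Mycn reached the minimum mean only through the Nat10 flox/flox group. Tbc1d4, the Akt substrate that governs GLUT4 release to the surface, fell to 3.34, 5.61 and 6.92 FPKM in hearts labelled Nat10-CKO, against 11.3, 12.9 and 12.2 FPKM in Nat10 flox/flox hearts (adjusted p = 0.00795). Esrra, a nuclear receptor of oxidative metabolism, rose (log2 fold change 0.56 ± 0.15 SE, limma adjusted p = 0.023). That call ended when Nat10-CKO replicate 2 or Nat10 flox/flox replicate 1 or 2 was left out. It also ended with mitochondrially encoded genes left out and after quantile normalization.

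Of these genes, one of glycogen handling fell the most. Phkg1, the muscle catalytic subunit of phosphorylase kinase, had 0.305, 0.232 and 0.483 FPKM in hearts labelled Nat10-CKO, against 6.95, 6.8 and 9.21 FPKM in Nat10 flox/flox hearts. The mean in hearts labelled Nat10-CKO was 0.0444 times that in Nat10 flox/flox hearts (log2 fold change -2.68 ± 0.15 SE, limma adjusted p = 0.000167). Phkg1 reached the minimum mean only through the Nat10 flox/flox group. The regulatory subunit gene Phkb (log2 fold change -0.62 ± 0.12 SE, limma adjusted p = 0.00726) and Epm2a, which encodes the glycogen phosphatase laforin (log2 fold change -1.34 ± 0.21 SE, limma adjusted p = 0.00315), also fell. Pygl, the liver phosphorylase, rose to 4.86, 5.36 and 6.83 FPKM in hearts labelled Nat10-CKO, against 3.3, 3.24 and 3.4 FPKM in Nat10 flox/flox hearts (adjusted p = 0.00932).

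Beside Pdp1, the other pyruvate dehydrogenase phosphatase, Pdp2, fell to 0.577, 1.13 and 1.34 FPKM in hearts labelled Nat10-CKO, against 5.37, 5.55 and 7.02 FPKM in Nat10 flox/flox hearts (log2 fold change -1.80 ± 0.18 SE, limma adjusted p = 0.000691). Pdk2, a kinase that opposes these phosphatases, fell as well, with 54.6, 89.2 and 113 FPKM in hearts labelled Nat10-CKO against 158, 177 and 191 FPKM in Nat10 flox/flox hearts (log2 fold change -1.08 ± 0.26 SE, limma adjusted p = 0.0174). Leaving out replicate 2 or 3 of Nat10 flox/flox ended that call, as did testing without a minimum mean. Pdk4 had 128, 147 and 206 FPKM in hearts labelled Nat10-CKO, against 190, 147 and 611 FPKM in Nat10 flox/flox hearts (adjusted p = 0.312, not past the threshold). Bsg, the chaperone of the lactate transporters, did not pass either (log2 fold change 0.45 ± 0.15 SE, limma adjusted p = 0.0524), nor did Me1, which encodes malic enzyme (adjusted p = 0.108).

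Among the branches, Rpia of the pentose phosphate pathway fell (log2 fold change -0.58 ± 0.10 SE, limma adjusted p = 0.00497). So did Sord, which makes fructose from sorbitol (log2 fold change -1.04 ± 0.19 SE, limma adjusted p = 0.00628), and Fbp2, the muscle fructose bisphosphatase that runs against phosphofructokinase (log2 fold change -1.65 ± 0.33 SE, limma adjusted p = 0.0089). Pgd, of the oxidative pentose phosphate pathway, rose to 79.2, 39.9 and 31.3 FPKM in hearts labelled Nat10-CKO, against 18.5, 19 and 19.4 FPKM in Nat10 flox/flox hearts (adjusted p = 0.0204). That call was lost without any 1 of Nat10 flox/flox hearts, without a minimum mean and after quantile normalization. Of the remaining glycolytic enzymes, Ldhd, a mitochondrial lactate dehydrogenase, fell (log2 fold change -1.27 ± 0.38 SE, limma adjusted p = 0.0351) and Adpgk, which phosphorylates glucose with ADP, rose (log2 fold change 0.33 ± 0.10 SE, limma adjusted p = 0.0334). Ldhd lost its call in 6 of 18 alternatives and Adpgk in 12 of 19, and for both these included 4 of the 6 with a library left out. Tigar and Bpgm did not pass (adjusted p = 0.0585 and 0.117). Slc2a8, a glucose transporter, and Hk3, a hexokinase, did not pass (adjusted p = 0.0955 and 0.162).

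**Figure D4:**
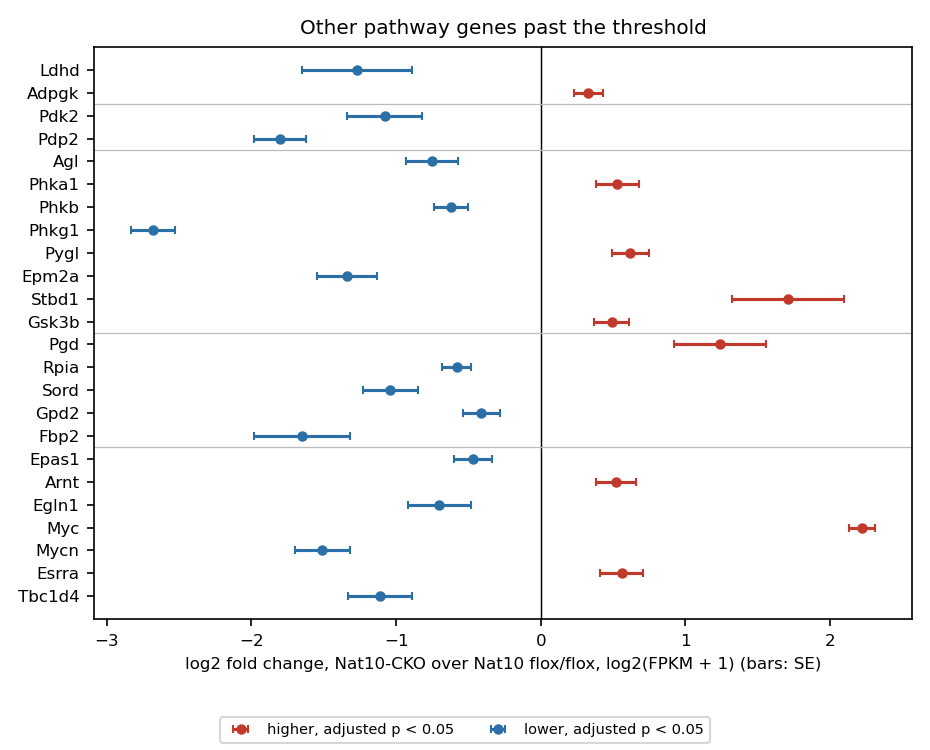
Log2 fold change (points, with bars of 1 SE) of the 24 other pathway genes past the threshold, for hearts labelled Nat10-CKO over Nat10 flox/flox hearts on the log2(FPKM + 1) scale, grouped by function with grey lines between groups. The 15 that fell run down to -2.68 (Phkg1) and the 9 that rose run up to 2.22 (Myc).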

How the data were processed

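Hearts of 3 mice labelled Nat10-CKO and 3 labelled Nat10 flox/flox, 10 days old, were sequenced from directional poly(A) libraries as paired reads, per the labels' protocols. Per the series' design text the authors aligned reads to GRCm39 with HISAT2 2.2.1 and counted them with featureCounts 2.0.6. CASAVA and DESeq2 1.42.0 stand in the submitters' processing notes without a role. The authors deposited FPKM per gene and library. The strand setting of the count and the definition of gene length are not given in the sources consulted, so overlapping and antisense genes are uncertain and levels compared between genes carry the authors' lengths. FPKM times length came out whole for 100% of values (tolerance 0.01 read), and the FPKM were already scaled by median-of-ratios size factors. Depth was 31155521 to 38051266 reads.

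The test was limma 3.58.1 in R 4.3.3 (trend, two-sided, no covariate) on log2(FPKM + 1) over genes with a mean of at least 1 FPKM, with Benjamini-Hochberg adjustment and a threshold of 0.05. Log2 fold changes on this scale understate the change of low genes. A fold is the ratio of the groups' mean FPKM. The script was tested on simulated data. Isoform shares were compared by exact permutation of samples (Python 3.11.15, scipy 1.17.1). The members and lists were chosen with earlier results of these data known. Members past the threshold and their isoform partners are given in every library, other members by range, and of other pathway genes up to 4 with the smallest adjusted p per subgroup. Pdk4 was added after its values were seen. Some items are not reported here. Alternatives changed the pseudocount, filter, scaling, variance model and samples. Where mitochondrially encoded genes were left out, the size factors were replaced by each library's total reads in the remaining genes. Where protein-coding genes were rescaled, they were replaced by total reads in protein-coding genes.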

Additional observations from a re-analysis of the deposited data

How the results depend on the processing

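Of the 13 called members, Pkm alone lost its call (12 of 19 alternatives, adjusted p 0.00388 to 0.213), and Pfkfb1 was not tested in 3. Of the 23 uncalled, 11 passed under at least 1. Members called higher numbered 10 to 15. Members called lower numbered 2, but 1 at a mean of at least 5 FPKM, 9 with mitochondrially encoded genes left out, 6 with protein-coding genes rescaled, 4 after quantile normalization, 9 with array weights, 6 with a replicate block, 6 scaled by total reads (an alternative added after seeing the data), 5 without Nat10-CKO replicate 1 and Nat10 flox/flox replicate 1, and 1 to 7 with 1 library left out. Over all genes 1924 were called lower, but 1159 at a mean of at least 5 FPKM, 2954 with mitochondrial genes left out, 3007 with array weights, and 1162 to 1951 with 1 library left out. Scaling by total reads outside mitochondrial genes, in place of the size factors, moved the median log2 fold change of all genes to -0.124 (0.035 as deposited). The share of calls that were higher moved to 41.7% (60.4% as deposited). Scaling by all reads in genes gave 0.002 and 55.8%. Other pathway genes called higher numbered 9, but 4 with mitochondrial genes left out, 4 after quantile normalization, 25 with array weights, and 4 to 17 with 1 library left out. Those called lower numbered 15, and 9 to 15 with 1 library left out. The share differences by reads were -20.5 points for Pfkm and 17 points for Ldha. The Aldoc share difference of -0.177 points ran from -0.266 to 0.000367 with 1 library left out, reversing without Nat10 flox/flox replicate 1, and was 0.00258 without both replicates 1. The causes were not tested. Same-numbered libraries correlated at 0.065, 0.037 and 0.105 in their deviations from group means, so the numbers were not taken as pairs. With the replicate number as a block, Pfkm, Eno3, Dlat and Pygm passed as lower (adjusted p 0.0352, 0.0438, 0.0432 and 0.0321) and Pkm did not (0.0624). voom on the recovered reads, added after seeing the data, called 10 members higher and 2 lower. Negative-binomial count tests were not run, since the deposited unit is FPKM. With 3 libraries a group, exact tests of shares cannot pass.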

Other observations

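Slc2a12, an insulin-responsive glucose transporter of heart and muscle, was below the minimum mean and is named after its values were seen. It had 12, 18 and 14 reads (0.0381, 0.0606 and 0.0482 FPKM) in hearts labelled Nat10-CKO, against 341, 315 and 345 reads (0.979, 1.16 and 1.13 FPKM) in Nat10 flox/flox hearts. The groups did not overlap.

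Eno2, the neuronal enolase, had 18.2 FPKM in replicate 1 of Nat10 flox/flox and 0.319 to 0.681 FPKM in the other 5 libraries, the same library in which Aldoc stood alone. Taldo1, which links the pentose phosphate pathway to glycolysis and is also named after its values were seen, had 241, 95.5 and 72.2 FPKM in hearts labelled Nat10-CKO, against 63.2, 58.7 and 60.5 FPKM in Nat10 flox/flox hearts, and did not pass (adjusted p = 0.11).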
